A study of Homo sapiens with 9 samples.

Results

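The 10 genes described here code for enzymes and regulators that use arginine and ornithine and make or break down polyamines: ARG2, ASS1, OAT, ODC1, AZIN1, OAZ1, AMD1, SRM, SMS and SAT1. They were chosen by name out of 61155 gene symbols, for their place in the pathway and because ARG2 RNA was lower in both knockout clones of the study. The ARG2 contrasts against WT therefore describe how the group was chosen and are given without a test. RNA was measured in MDA-MB-231, an established human cell line that the labels call basal-like breast cancer, with 3 libraries in each of 3 groups. KO1 and KO2 are 2 clones in which FBXL12 was knocked out, and WT is 1 control population that received a scrambled guide RNA; no treatment or time point is given. FBXL12 encodes an F-box protein, the substrate-binding part of an SCF ubiquitin ligase. A clone descends from 1 cell, so the genotype was sampled in 2 clones against 1 control. Both clones were compared with the same WT libraries, and their results against WT therefore share that reference. Whether a group's libraries came from separate cultures is not stated in the labels; p-values then reflect the spread among the libraries alone, and that spread may be technical.

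Total counts ran from 52427841 to 97243363 per library, and all 10 genes passed the filter on low counts that left 17759 genes for testing. Levels are in CPM, read counts divided by the TMM-scaled library total in units of 1e6 reads. Log2 fold changes, their standard errors (SE), 95% intervals and Benjamini-Hochberg adjusted p-values come from edgeR's quasi-likelihood test over all 9 libraries, and a gene was called changed at an adjusted p under 0.05. The targeted gene FBXL12 (chr19:9810267-9827816, GRCh38) had 9.40 to 9.95 CPM in KO1, 5.33 to 6.36 CPM in KO2 and 21.4 to 23.4 CPM in WT. VIM, CD44, EGFR and KRT18 were expressed in every library, the lowest value being 380.2 CPM for KRT18, and PGR had 0 counts. Of the other receptors, ESR1 had at most 0.154 CPM and ERBB2 between 57.3 and 79.1 CPM. Of the basal keratins, KRT5 had at most 1 count and KRT14 at most 0.321 CPM in any library. Summed leukocyte markers reached at most 0.333 CPM in KO1, 0.334 CPM in KO2 and 0.325 CPM in WT, and summed hepatocyte markers at most 0.333 CPM in KO1, 0.268 CPM in KO2 and 0.214 CPM in WT. Summed endothelial markers ran from 0.680 to 0.848 CPM in KO1, from 0.631 to 0.728 CPM in KO2 and from 0.810 to 0.966 CPM in WT. Summed fibroblast markers ran from 2.54 to 3.54 CPM in KO1, from 2.46 to 2.72 CPM in KO2 and from 3.28 to 4.56 CPM in WT, nearly all of it COL1A1, while DCN had at most 1 count in a library. Both sums were lower in KO2 than in WT without overlap, as the ARG2 level was, and their part in any result was not tested.

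Arginine is the shared starting point of several routes. Arginase splits it into urea and ornithine; the mitochondrial arginase is ARG2 and the cytosolic liver arginase is ARG1. Ornithine can go by way of ornithine aminotransferase (OAT) towards glutamate and proline, or be decarboxylated by ODC1 to putrescine, the first polyamine. Argininosuccinate synthase (ASS1) works on the opposite side and lets a cell make arginine from citrulline; many tumours express little of it and depend on imported arginine. Spermidine synthase (SRM) and spermine synthase (SMS) lengthen putrescine with a group that AMD1 supplies from S-adenosylmethionine, and SAT1 acetylates polyamines for breakdown and export. ODC1 is a short-lived protein: antizyme (OAZ1) binds it and carries it to the proteasome, and antizyme inhibitor (AZIN1), an ODC1-like protein without enzyme activity, takes antizyme away from it.

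Upstream sequence is shown for ARG2, the gene that led to the choice of the group, and for SRM and ASS1, whose windows hold the E-box CACGTG, the motif read by MYC and related factors. All are RefSeq sequence of build GRCh38.p14, 5′ to 3′ in the direction of the gene, and end at the base before the gene's first annotated base. Capitals mark CACGTG in SRM and ASS1, and in ARG2 they mark TGACGTCA, the cAMP response element sequence, which was searched for after this sequence had been read. ARG2 lies on the plus strand (chr14:67619670-67619797), SRM on the minus strand (chr1:11060025-11060268) and ASS1 on the plus strand (chr9:130444711-130444928).
ARG2: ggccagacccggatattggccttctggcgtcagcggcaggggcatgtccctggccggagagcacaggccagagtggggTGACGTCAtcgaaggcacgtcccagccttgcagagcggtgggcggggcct
SRM: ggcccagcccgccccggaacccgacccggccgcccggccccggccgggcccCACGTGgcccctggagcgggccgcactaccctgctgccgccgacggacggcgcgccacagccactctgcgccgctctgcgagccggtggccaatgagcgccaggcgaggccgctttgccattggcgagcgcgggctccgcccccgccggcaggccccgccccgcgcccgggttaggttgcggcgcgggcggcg
ASS1: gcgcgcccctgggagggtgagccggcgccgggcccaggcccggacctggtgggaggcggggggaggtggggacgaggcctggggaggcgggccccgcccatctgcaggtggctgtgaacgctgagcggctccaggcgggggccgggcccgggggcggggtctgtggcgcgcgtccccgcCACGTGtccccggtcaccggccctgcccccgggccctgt
Promoter windows of 250 bases matched 9 of the 10 genes, in 13 windows, since some genes have several start sites. CACGTG, which reads the same on both strands, was in 3 of these 13 windows: SRM with its first base at -199 from the start site, ASS1 at -71, and ODC1 at -29 from its second start. These positions count from the start site that ends each window. For SRM and ASS1 it lies past the end of the sequence shown, so the motif stands nearer to that end. TGACGTCA was in 1 of the 13 windows, that of ARG2, which held 2 copies, 1 of them in the sequence shown. Among all 35116 windows of this length, 6.35% held CACGTG and 1.65% held TGACGTCA. A match describes the letters of a window and does not show that a factor binds there.

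To compare genes with each other, CPM was divided by the length of the merged exons. On this scale of CPM per kilobase ODC1 was highest in every group, at 212 ± 3.46 in KO1, 217.5 ± 3.69 in KO2 and 226 ± 2.62 in WT (SD, n = 3 each). SMS came next, with 132 ± 3.59 CPM per kilobase in KO1, 143 ± 2.86 in KO2 and 123 ± 1.03 in WT. At the low end stood ARG2, with 2.35 ± 0.172 CPM per kilobase in KO1, 2.71 ± 0.172 in KO2 and 5.59 ± 0.0642 in WT, and ASS1, with 1.63 ± 0.0259 in KO1, 2.33 ± 0.103 in KO2 and 1.53 ± 0.0749 in WT. In WT the order was ODC1, SMS, OAZ1, SRM, AZIN1, OAT, AMD1, SAT1, ARG2 and ASS1. SRM and AZIN1 were the neighbours in that order whose libraries overlapped. The same 4 genes held the ends of the order in both clones, AMD1, SAT1 and OAZ1 kept their rank, and AZIN1, OAT and SRM changed places among themselves. In the middle of the order the libraries of OAZ1 and AZIN1, and of SRM and OAT, overlapped in KO1, and those of OAZ1 and OAT, and of OAT and AZIN1, overlapped in KO2. The ARG2 length of 2418 exon bases includes 904 shared with VTI1B, a gene on the opposite strand. How reads there were counted is not known, and the level of ARG2 per kilobase and its rank beside SAT1 depend on it.

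ARG2 (chr14:67619798-67651720, plus strand, GRCh38) was the member with the lowest RNA relative to WT in both clones. Its level was 5.39, 6.15 and 5.49 CPM in KO1, 6.95, 6.12 and 6.59 CPM in KO2, and 13.4, 13.7 and 13.4 CPM in WT. The clones overlapped each other and lay far below WT, whose 3 libraries differed little. These levels rest on 420 to 486 reads in KO1, 363 to 418 reads in KO2 and 832 to 1321 reads in WT. Mean levels were 5.68 ± 0.416 CPM in KO1, 6.55 ± 0.417 CPM in KO2 and 13.5 ± 0.155 CPM in WT (SD, n = 3 each), which is 42.0% of WT in KO1 and 48.5% in KO2. The log2 fold change was -1.25 in KO1 (SE 0.08, interval -1.43 to -1.07) and -1.05 in KO2 (SE 0.08, interval -1.23 to -0.86). It ranged from -1.31 to -1.20 in KO1 and from -1.10 to -1.003 in KO2 when each of the 9 libraries was left out in turn. The difference between clones was -0.21 for KO1 minus KO2 (SE 0.09, interval -0.39 to -0.02) with an adjusted p of 0.0617. The same clone levels led to the choice of the gene, so this p is not independent of that choice. That p was under 0.05 in 5 of the alternatives, among them the one without KO1 replicate 2 (-0.25, adjusted p = 0.0311). In RNA of a whole culture, fewer cells that express a gene and less RNA per cell cannot be told apart. The other arginase gene, ARG1, had 5 counts over all 9 libraries and was not tested.

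**Figure D1:**
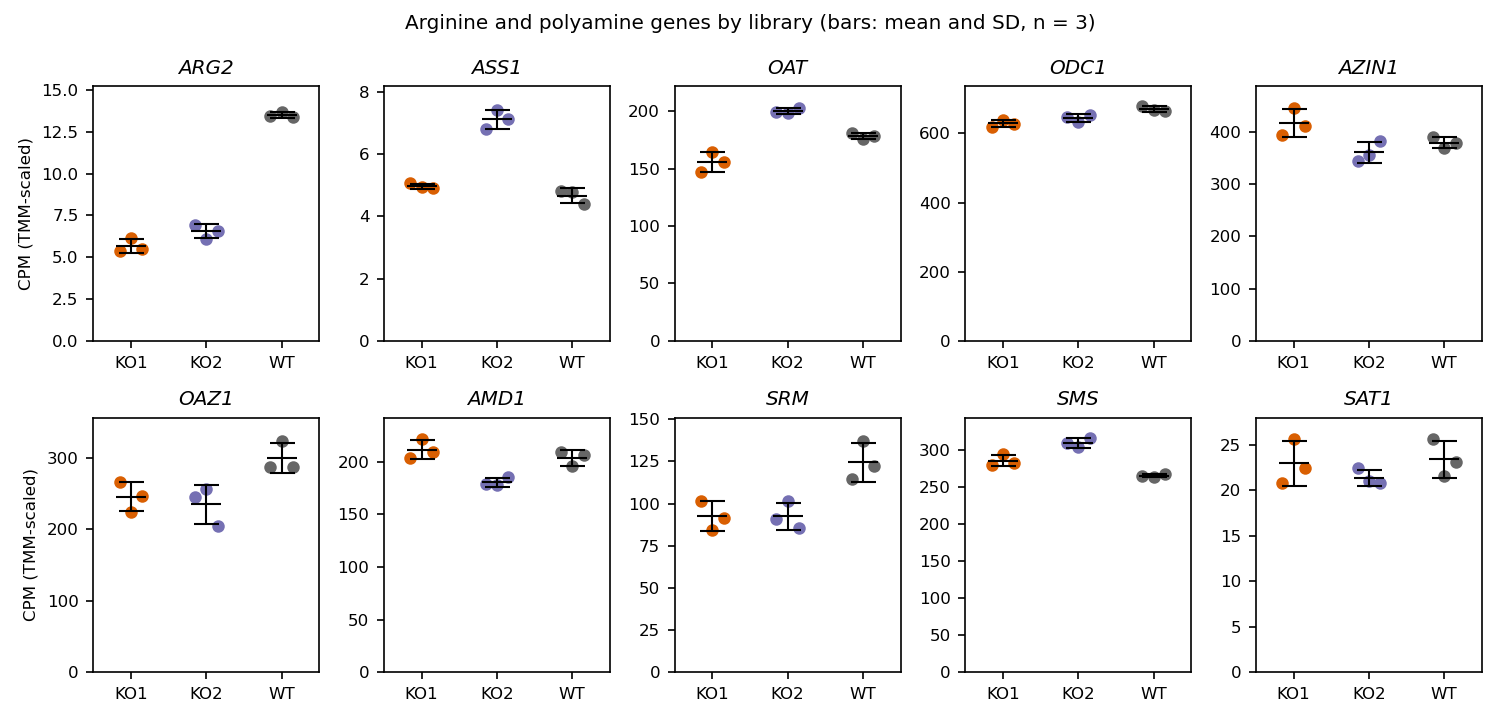
TMM-scaled CPM (vertical axes, from 0) of the 10 genes in each library of KO1, KO2 and WT; points are libraries, bars the mean and SD of 3. ARG2 lies at 5.39 to 6.95 CPM in the clones and at 13.4 to 13.7 CPM in WT, SRM and OAZ1 are lower in both clones, and ASS1 and OAT are highest in KO2.

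Other genes of the same stretch of chromosome 14 were set beside ARG2. Its 20 nearest protein-coding neighbours, 10 on each side, were taken among genes of mean log2 CPM 2 or more. They had a median log2 fold change of -0.30 in KO1, with 18 of 20 below 0, and of 0.04 in KO2, with 6 of 20 below 0. ARG2 was lower than the median of its neighbours in both clones, which a gene chosen for its fall in both clones would tend to be. A decrease of the neighbours moved with ARG2 in KO1 but not in KO2, and its part in the ARG2 level was not tested. VTI1B, a SNARE protein gene on the opposite strand, shares 904 of the 2418 exon bases of ARG2 (37.4%), and no source used here gives the strand setting of the counting. Reads from the shared bases can therefore not be assigned to one gene with certainty. VTI1B averaged 86.3 ± 3.52 CPM in KO1, 108.5 ± 1.12 CPM in KO2 and 103.6 ± 2.85 CPM in WT (SD, n = 3 each). It was lower in KO1 (log2 fold change -0.26 ± 0.04 SE, adjusted p = 0.00026), and the difference did not pass the test in KO2 (0.07 ± 0.04 SE, adjusted p = 0.223).

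Among 10614 genes above the same expression limit as the neighbours, those whose log2 CPM, set against their own WT mean, lay nearest to ARG2 over the 9 libraries included CPA4, FOXQ1, SEMA3B and SERPINB9. The measure was the root mean square distance, and it is a description of likeness with no test. CPA4, a carboxypeptidase gene, was closest at 0.18 log2 units, with mean levels of 20.4 CPM in KO1, 18.1 CPM in KO2 and 41.9 CPM in WT. FOXQ1, a forkhead transcription factor gene, had 6.02 CPM in KO1, 5.12 CPM in KO2 and 11.03 CPM in WT at a distance of 0.23. SEMA3B, a secreted semaphorin gene, averaged 3.18 CPM in KO1, 3.86 CPM in KO2 and 6.68 CPM in WT. SERPINB9, the granzyme B inhibitor gene, averaged 3.17 CPM in KO1, 3.82 CPM in KO2 and 9.43 CPM in WT. The distances still held a trend of each library with the GC content of genes. With that trend removed, SEMA3B stood at -0.73 in KO1 and -0.35 in KO2, from log2 fold changes of -1.065 and -0.79. FOXQ1 stood at -0.59 in KO1 and -0.78 in KO2, from -0.87 and -1.11. CPA4 (-1.05 and -1.22), SERPINB9 (-1.62 and -1.35) and ARG2 (-1.28 and -1.08) changed little.

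ASS1 and OAT, which stand on either side of ornithine and arginine, differed between the clones. ASS1 (chr9:130444929-130501274) rose in KO2 and not by this test in KO1: its level was 5.05, 4.92 and 4.91 CPM in KO1, 6.79, 7.42 and 7.11 CPM in KO2, and 4.82, 4.77 and 4.40 CPM in WT. Every KO2 library was above every other library, and the KO1 libraries lay just above those of WT. Against WT, ASS1 stood at a log2 fold change of 0.61 in KO2 (SE 0.09, interval 0.42 to 0.80, adjusted p = 4.3e-05), a mean of 152% of WT. In KO1 it was 0.09 (SE 0.09, interval -0.10 to 0.28, adjusted p = 0.485), and 0.24 with an adjusted p of 0.0434 once a trend of each library with the GC content of genes was removed. The difference KO1 minus KO2 was -0.52 ± 0.09 (SE, adjusted p = 0.000156). The 20 neighbours of ASS1 had a median of 0.07 in KO1 and -0.20 in KO2, with 19 of the 20 below 0 in KO2. Near-identical copies can share reads with ASS1: its 11 listed pseudogenes held between 1.02% and 4.11% as many reads as ASS1 in a library.

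OAT (chr10:124397303-124418976) fell in KO1 and rose in KO2. Its level was 147.2, 164.7 and 155.6 CPM in KO1, 199.6, 198.3 and 202.7 CPM in KO2, and 181.4, 175.4 and 178.5 CPM in WT, so that none of the 3 groups overlapped another. OAT's log2 fold change was -0.20 ± 0.04 in KO1 (SE, adjusted p = 0.00269) and 0.17 ± 0.04 in KO2 (SE, adjusted p = 0.00514). KO1 minus KO2 came to -0.36 ± 0.04 (SE, adjusted p = 4.59e-06). These calls and directions held in all 19 alternatives run, left-out libraries included. OAT's neighbours on chromosome 10 had a median of -0.22 in KO1, with 18 of 20 below 0, and of 0.04 in KO2. The decrease in KO1 was thus about as large as the median of the surrounding genes, and their part in the OAT level was not tested.

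ODC1, OAZ1 and AZIN1 set the ODC1 step. ODC1 (chr2:10439968-10448504) had 619.5, 640 and 628.7 CPM in KO1, 648.3, 633.3 and 654.6 CPM in KO2, and 679.6, 667.7 and 665 CPM in WT. All clone libraries were below all WT libraries, by a small margin. The log2 fold change was -0.09 in KO1 (SE 0.03, interval -0.17 to -0.02, adjusted p = 0.0526) and -0.06 in KO2 (SE 0.03, interval -0.13 to 0.02, adjusted p = 0.203). In KO1 it passed the test with limma-voom (adjusted p = 0.0333), with a stricter filter of 1 CPM in 3 libraries (0.0209) and without KO2 replicate 3 (0.0344). The neighbours of ODC1 were higher than in WT, by a median of 0.16 in KO1 and 0.22 in KO2.

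OAZ1 (chr19:2269509-2273490), the antizyme gene, fell in both clones. Its level was 265.5, 224.5 and 246.1 CPM in KO1, 244.6, 255.8 and 204 CPM in KO2, and 287.4, 323.6 and 286.5 CPM in WT. The clones overlapped each other and stayed below WT. On the log2 scale the change was -0.29 ± 0.09 in KO1 (SE, adjusted p = 0.0417) and -0.35 ± 0.09 in KO2 (SE, adjusted p = 0.0124). With the GC trend removed both calls were lost, at -0.04 in KO1 (adjusted p = 0.405) and -0.06 in KO2 (adjusted p = 0.168). The KO1 call was also lost without WT replicate 1 (-0.30), 2 (-0.21) or 3 (-0.30) or KO1 replicate 2 (-0.22) or 3 (-0.27). OAZ1 has a GC content of 61.2%, and the 1177 genes with at least 60% GC moved in the same libraries. Their median deviation from the mean of all libraries, in log2 units, was 0.09, -0.25 and -0.06 in KO1, -0.12, -0.03 and -0.27 in KO2, and 0.10, 0.34 and 0.19 in WT. The 20 neighbours of OAZ1 had medians of -0.40 in KO1 and -0.38 in KO2, and of -0.13 and -0.05 with the GC trend removed. What these shifts contribute to the OAZ1 values was not tested.

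AZIN1, the antizyme inhibitor gene on chromosome 8, was higher in KO1 than in KO2. Its level was 394, 446.3 and 410.8 CPM in KO1, 344.8, 354.8 and 382.6 CPM in KO2, and 389.3, 368.9 and 379.5 CPM in WT. KO1 lay above both other groups, while KO2 and WT overlapped. KO1 minus KO2 was 0.21 ± 0.05 (SE, adjusted p = 0.00275). Against WT the log2 fold change was 0.14 ± 0.05 in KO1 (SE, adjusted p = 0.0461) and -0.07 ± 0.05 in KO2 (SE, adjusted p = 0.256). The KO1 call was lost without WT replicate 2 (0.13) or 3 (0.15), KO1 replicate 2 (0.09) or 3 (0.16), or KO2 replicate 1 (0.14) or 2 (0.14). With the GC trend removed the log2 fold change was 0.08 in KO1 (adjusted p = 0.062) and -0.12 in KO2 (adjusted p = 0.003). The 20 neighbours of AZIN1 had medians of 0.12 in KO1 and 0.05 in KO2, and of 0.03 and 0.01 with the GC trend removed. Their part in the AZIN1 level was not tested.

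Ratios of counts within a library do not depend on how libraries are scaled. AZIN1 had 1.48, 1.99 and 1.67 reads for each OAZ1 read in KO1, 1.41, 1.39 and 1.88 in KO2, and 1.36, 1.14 and 1.33 in WT. All 6 clone libraries lay above the 3 WT libraries, the nearest 2 being 1.39 in KO2 and 1.36 in WT. ODC1 had 2.33, 2.85 and 2.56 reads for each OAZ1 read in KO1, 2.65, 2.48 and 3.21 in KO2, and 2.37, 2.06 and 2.32 in WT, where KO1 and WT overlapped and KO2 did not. Ratios that involve OAZ1 carry its dependence on GC content, and they were not tested.

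Of the enzymes that build spermidine and spermine, SRM fell in both clones, SMS rose in both, and AMD1 fell in KO2. SRM (chr1:11054584-11060024) had 101.8, 84.45 and 91.5 CPM in KO1, 90.73, 101.3 and 85.64 CPM in KO2, and 114.5, 137.2 and 122.2 CPM in WT. The clones covered nearly the same range, entirely below WT. The log2 fold change was -0.43 ± 0.09 in KO1 (SE, adjusted p = 0.00367) and -0.43 ± 0.09 in KO2 (SE, adjusted p = 0.00227). SRM has a GC content of 63.7%, and the libraries with lower GC-rich genes listed for OAZ1 are also those with lower SRM in each group. With the GC trend removed SRM stood at -0.12 in KO1 (adjusted p = 0.00895) and -0.03 in KO2 (adjusted p = 0.434). Its neighbours had medians of -0.02 in KO1 and -0.01 in KO2.

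SMS (chrX:21940573-21994835) had 279.8, 294.3 and 282.3 CPM in KO1, 309, 303.3 and 315.6 CPM in KO2, and 265.2, 263.4 and 267.8 CPM in WT. The groups did not overlap, and KO1 lay between KO2 and WT. The log2 fold change was 0.22 ± 0.04 in KO2 (SE, adjusted p = 0.000153), which held in every alternative run. In KO1 it was 0.10 ± 0.04 (SE, adjusted p = 0.0391). The KO1 call was lost without WT replicate 1 (0.12), 2 (0.11) or 3 (0.12), KO1 replicate 2 (0.09) or 3 (0.13), or KO2 replicate 1 (0.11) or 2 (0.11). The difference KO1 minus KO2 was -0.12 ± 0.04 (SE, adjusted p = 0.0171), and its call was lost without KO1 replicate 1 (-0.09), KO1 replicate 3 (-0.10) or KO2 replicate 1 (-0.10).

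AMD1 (chr6:110874770-110895713) had 203.9, 221.9 and 209.3 CPM in KO1, 178.7, 177.7 and 185.4 CPM in KO2, and 209.7, 195.6 and 206.2 CPM in WT. KO2 lay below every other library, and KO1 overlapped WT. AMD1's log2 fold change was -0.17 ± 0.04 in KO2 (SE, adjusted p = 0.00374) and 0.05 in KO1 (SE 0.04, interval -0.04 to 0.15, adjusted p = 0.362). KO1 minus KO2 was 0.23 ± 0.04 (SE, adjusted p = 0.000417). The neighbours of AMD1 had medians of 0.08 in KO1 and 0.02 in KO2.

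SAT1 (chrX:23783173-23786226), the acetyltransferase of polyamine breakdown, had 20.86, 25.69 and 22.44 CPM in KO1, 22.42, 21.02 and 20.79 CPM in KO2, and 25.61, 21.58 and 23.17 CPM in WT. All 3 groups overlapped. The log2 fold change was -0.03 in KO1 (SE 0.08, interval -0.20 to 0.14, adjusted p = 0.802) and -0.13 in KO2 (SE 0.08, interval -0.31 to 0.04, adjusted p = 0.189). With the GC trend removed the KO2 value was -0.18 with an adjusted p of 0.0218. SRM had 4.88, 3.29 and 4.08 reads for each SAT1 read in KO1, 4.05, 4.82 and 4.12 in KO2, and 4.47, 6.36 and 5.27 in WT. Both clones overlapped WT in this ratio. SRM has a GC content of 63.7% and SAT1 of 43.3%, so this ratio carries the GC trend too, and it was not tested.

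**Figure D2:**
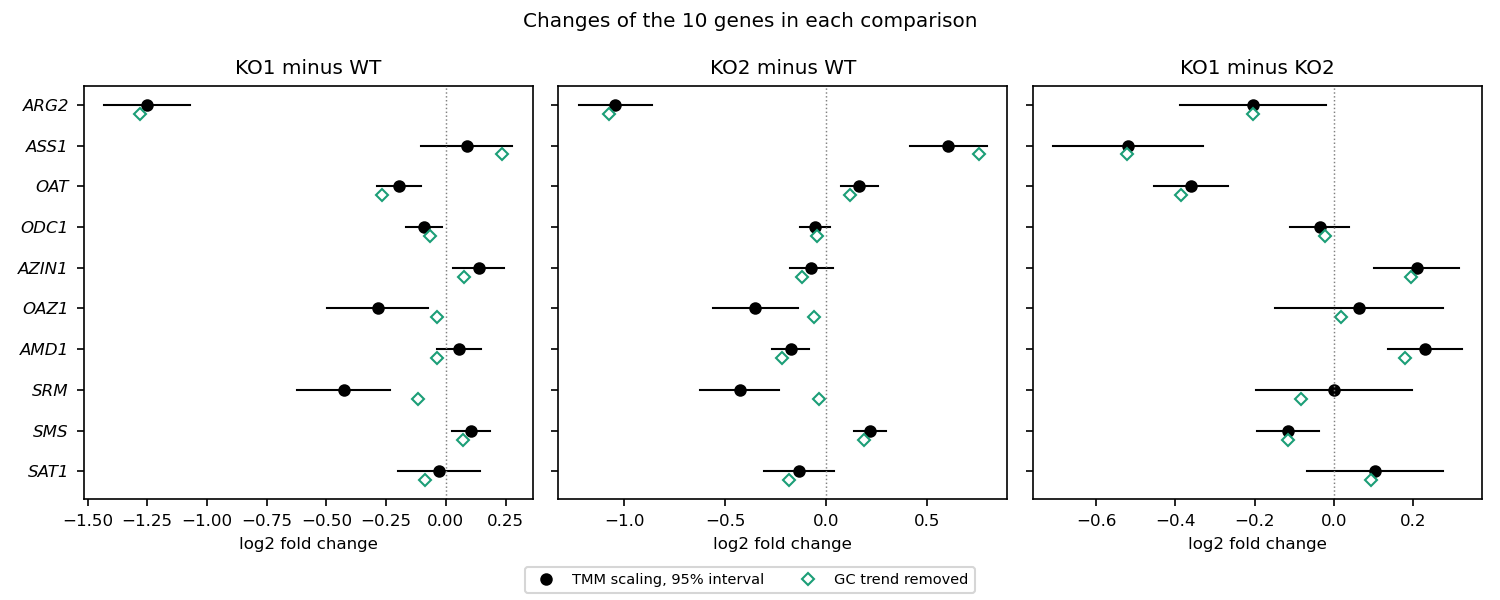
Log2 fold change (horizontal axes, each with its own range) of the 10 genes for KO1 minus WT, KO2 minus WT and KO1 minus KO2; black points carry 95% intervals and open diamonds are values with the GC trend of each library removed. ARG2 lies at similar places in both versions (KO2: -1.05 and -1.08), while OAZ1 and SRM lie closer to 0 once the trend is removed (SRM in KO2: -0.43 and -0.03).

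Counted over the 9 genes other than ARG2, 2 rose (AZIN1, SMS) and 3 fell (OAT, OAZ1, SRM) in KO1, and 4 did not pass the test. Over all 17759 genes tested, 34.8% were called in that comparison, 18.0% higher and 16.8% lower. In KO2, 3 of the 9 rose (ASS1, OAT, SMS), 3 fell (OAZ1, AMD1, SRM) and 3 did not pass, beside 49.4% of all genes called, 24.7% higher and 24.7% lower. KO1 against KO2 called 2 of 10 higher (AZIN1, AMD1) and 3 lower (ASS1, OAT, SMS), beside 48.9% of all genes, 23.9% higher and 24.9% lower. Libraries did not overlap for 7 of 9 genes between KO1 and WT, where 46.5% of all genes did not, for 7 of 9 between KO2 and WT (58.8%), and for 5 of 10 between KO1 and KO2 (55.1%). With so few genes, no difference from the shares over all genes can be read from these counts. In KO1 the median size of the log2 fold change was 0.10 over the 9 genes and 0.21 over all genes. In KO2 it was 0.17 over the 9 genes and 0.29 over all genes. The 9 genes averaged at least 4.66 CPM in every group, whereas all genes include lower ones. These medians were not matched for level. The signed medians were -0.03 over the 9 genes and -0.0049 over all genes in KO1, and -0.07 over the 9 genes and -0.0077 over all genes in KO2.

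The wider pathway was read from a list of 55 further genes, of which 43 were tested. In KO1 6 rose, 14 fell and 23 did not pass the test; in KO2 8 rose, 18 fell and 17 did not pass. Beside these and the counts for the lists that follow stand the shares of all genes called: 18.0% higher and 16.8% lower in KO1, and 24.7% higher and 24.7% lower in KO2. Removing the GC trend gave 9 higher and 13 lower in KO1, and 9 higher and 15 lower in KO2. The count of lower genes in KO1 was 9 without WT replicate 2, and the count of higher genes in KO2 was 4 without WT replicate 3 and 5 without WT replicate 2 or KO2 replicate 1. The median log2 fold change of the 43 genes was -0.09 in KO1 and -0.16 in KO2, beside -0.0049 in KO1 and -0.0077 in KO2 for all genes. KO1 against KO2 called 14 of the 43 higher and 9 lower, beside 23.9% and 24.9% of all genes. SLC7A3, SLC25A2, OTC, PRODH2, SATL1 and MTAP, the methylthioadenosine phosphorylase gene, had 0 counts in every library, where 0 counts allow up to 0.0305 CPM in the library with the most reads and 0.0574 CPM in that with the fewest. NOS1, NOS2 and NOS3, the nitric oxide synthase genes, had 41, 5 and 52 counts over all libraries, PRODH had 18 and ATP13A4 had 12.

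Of 7 tested genes for the transport of arginine and its relatives, 1 fell in KO1, and 2 rose and 1 fell in KO2. SLC7A2, a plasma membrane carrier of arginine, averaged 67.8 ± 2.65 CPM in KO1, 92.6 ± 2.48 CPM in KO2 and 71.7 ± 2.26 CPM in WT, with log2 fold changes of -0.08 in KO1 (adjusted p = 0.204) and 0.37 in KO2 (adjusted p = 8.1e-06). With the GC trend removed SLC7A2 was also called in KO1, at -0.15 (adjusted p = 0.00145). SLC7A6, an exchanger of arginine for neutral amino acids, averaged 38.5 ± 0.838 CPM in KO1, 23.6 ± 1.82 CPM in KO2 and 38.9 ± 1.26 CPM in WT; it fell by 0.72 in KO2 (adjusted p = 1.33e-07). SLC25A29, a mitochondrial carrier of basic amino acids, averaged 9.33 ± 0.989 CPM in KO1, 14.5 ± 0.828 CPM in KO2 and 14.97 ± 0.718 CPM in WT; it fell by 0.68 in KO1 (adjusted p = 1.94e-05). The 20 neighbours of SLC25A29 on chromosome 14 had a median of -0.27 in KO1, with 20 of 20 below 0, and of 0.12 in KO2. The clones differed in all 3, with KO1 minus KO2 at -0.45 for SLC7A2 (adjusted p = 8.12e-07), 0.70 for SLC7A6 (adjusted p = 1.09e-07) and -0.64 for SLC25A29 (adjusted p = 1.37e-05).

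Of 4 tested genes of the urea cycle and arginine synthesis, 1 fell in KO1, and 1 rose and 2 fell in KO2. CPS1, the first enzyme of the cycle, averaged 13.8 ± 0.316 CPM in KO1, 22.6 ± 1.31 CPM in KO2 and 13.9 ± 0.669 CPM in WT, and rose by 0.70 in KO2 (adjusted p = 6.42e-07). Its 20 neighbours on chromosome 2 had a median of 0.58 in KO2, with 19 of 20 above 0. ASL, which completes the step that ASS1 begins, averaged 8.78 ± 0.918 CPM in KO1, 6.98 ± 0.547 CPM in KO2 and 10.6 ± 0.795 CPM in WT. It fell by 0.27 in KO1 (adjusted p = 0.0426) and by 0.60 in KO2 (adjusted p = 0.000126), and by 0.38 in KO2 with the GC trend removed. The KO1 call of ASL was lost with the GC trend removed (-0.07) and on leaving out WT replicate 1 (-0.23) or 2 (-0.22), KO1 replicate 2 (-0.21) or 3 (-0.22), or KO2 replicate 1 (-0.26). NAGS, whose product activates CPS1, was called lower in KO2 (-0.30, adjusted p = 0.0288). That value turned to 0.10 with the GC trend removed, and the call was lost without WT replicate 2 (-0.20), WT replicate 3 (-0.30) or KO2 replicate 3 (-0.24). In KO1 NAGS stood at 0.0022 (adjusted p = 0.99), and at 0.32 with an adjusted p of 0.000303 with the GC trend removed.

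Other users of arginine and its relatives gave 2 higher and 2 lower genes of 5 in KO1, and 1 higher and 1 lower in KO2. AGMAT, which is annotated as an agmatinase, averaged 10.0 ± 0.0642 CPM in KO1, 4.04 ± 0.276 CPM in KO2 and 6.75 ± 0.315 CPM in WT. It rose by 0.57 in KO1 (adjusted p = 0.000101) and fell by 0.75 in KO2 (adjusted p = 5.1e-06), and the clones differed by 1.32 (adjusted p = 6.86e-09). DDAH1, which degrades methylated arginines, rose by 0.24 in KO1 (adjusted p = 0.0025) and by 0.29 in KO2 (adjusted p = 0.000306). Its 20 neighbours had medians of 0.13 in KO1, with 17 of 20 above 0, and of 0.02 in KO2. GAMT, an enzyme of creatine synthesis, fell by 0.46 in KO1 (adjusted p = 0.00328) and by 0.25 there with the GC trend removed; in KO2 it stood at -0.25 (adjusted p = 0.0574). The 20 neighbours of GAMT had medians of -0.26 in KO1 and -0.36 in KO2, and of -0.04 and -0.14 with the GC trend removed. The other lower gene in KO1, named after its values were seen, was DDAH2 (-1.08, adjusted p = 0.0318). Its call was lost with the GC trend removed (-0.82, adjusted p = 0.121), with no filter on low counts (-1.07), and without WT replicate 2 (-1.08), WT replicate 3 (-0.91) or KO2 replicate 1 (-1.08).

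On the branch that links ornithine with proline and glutamate, 3 of 5 tested genes fell in KO1 and 2 of 5 in KO2, and none rose. ALDH18A1, the first enzyme from glutamate to proline and ornithine, averaged 120.1 ± 1.45 CPM in KO1, 166 ± 4.13 CPM in KO2 and 165.5 ± 2.46 CPM in WT. It fell by 0.46 in KO1 (adjusted p = 3.41e-07), where its neighbours on chromosome 10 had a median of -0.29, and stood at 0.01 in KO2 (adjusted p = 0.911). PYCR1, a pyrroline-5-carboxylate reductase, averaged 44.1 ± 6.41 CPM in KO1, 39.4 ± 3.94 CPM in KO2 and 61.7 ± 9.78 CPM in WT. It fell by 0.48 in KO1 (adjusted p = 0.0355) and by 0.65 in KO2 (adjusted p = 0.00737), and by 0.22 and 0.32 with the GC trend removed. Its KO1 call was lost without WT replicate 2 (-0.35) or 3 (-0.48), KO1 replicate 2 (-0.37) or 3 (-0.49), or KO2 replicate 1 (-0.48). The 20 neighbours of PYCR1 had medians of -0.37 in KO1 and -0.47 in KO2, with 20 of 20 below 0 in KO2. With the GC trend removed these medians were -0.12 in KO1 and -0.10 in KO2. ALDH4A1, which takes proline carbon to glutamate, fell by 0.62 in KO2 (adjusted p = 0.000535), and by 0.35 with the GC trend removed. In KO1 it was called at -0.38 (adjusted p = 0.0189) but not with the GC trend removed (-0.16) or without WT replicate 2 (-0.32) or 3 (-0.38) or KO1 replicate 2 (-0.28) or 3 (-0.35).

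OAZ2, the second broadly expressed antizyme gene, had the greatest difference between clones among the named pathway genes. It averaged 150.1 ± 4.60 CPM in KO1, 49.5 ± 1.17 CPM in KO2 and 128 ± 3.46 CPM in WT. It rose by 0.23 in KO1 (adjusted p = 0.000603) and fell by 1.37 in KO2 (adjusted p = 3.02e-12), and KO1 minus KO2 was 1.602 (adjusted p = 2.9e-13). Its neighbours on chromosome 15 moved with it: the 20 nearest had a median of 0.19 in KO1 and of -1.42 in KO2, where 20 of 20 lay below 0. Their part in the OAZ2 values was not tested. AZIN2, the second antizyme inhibitor gene, fell by 0.50 in KO1 (adjusted p = 0.000779). In KO2 AZIN2 was called at -0.24 (adjusted p = 0.0454), a call lost with the GC trend removed (-0.18) and without WT replicate 1 (-0.24), 2 (-0.23) or 3 (-0.26), KO1 replicate 3 (-0.24), or KO2 replicate 1 (-0.17) or 2 (-0.28).

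Of 3 tested genes of polyamine breakdown, none was called in KO1, and 1 rose and 1 fell in KO2. SMOX, the spermine oxidase gene, averaged 14.7 ± 2.16 CPM in KO1, 10.3 ± 0.548 CPM in KO2 and 16.0 ± 1.66 CPM in WT. It fell by 0.63 in KO2 (adjusted p = 0.000157), by 0.34 there with the GC trend removed, and stood at -0.12 in KO1 (adjusted p = 0.417). SAT2 was called higher in KO2 (0.21, adjusted p = 0.0416; 0.32 with the GC trend removed), a call lost without WT replicate 2 (0.22), WT replicate 3 (0.14), KO2 replicate 1 (0.17) or KO2 replicate 2 (0.15). Among 5 polyamine transport genes, 2 rose and 1 fell in KO1 and 1 fell in KO2. ATP13A3, a P-type ATPase of polyamine uptake, averaged 387.6 ± 19.7 CPM in KO1, 341.6 ± 17.8 CPM in KO2 and 339.6 ± 12.5 CPM in WT. It rose by 0.19 in KO1 (adjusted p = 0.00666), and by 0.10 there with the GC trend removed. Its 20 neighbours had a median of 0.14 in KO1, with 17 of 20 above 0, and of 0.11 with the GC trend removed. The calls of SLC22A3 in KO1 (0.15, adjusted p = 0.0485) and of SLC18B1 in KO1 (-0.19, adjusted p = 0.0318) and KO2 (-0.17, adjusted p = 0.0321) were lost on leaving out single libraries. For SLC22A3 in KO1 these were any one library other than KO1 replicate 1 and KO2 replicate 1, with values of 0.14 to 0.17. The 20 neighbours of SLC22A3 had a median of 0.17 in KO1, and of 0.10 with the GC trend removed. For SLC18B1 the calls were lost without WT replicate 1 (-0.13 in both clones) or WT replicate 2 (-0.19 in both), in KO1 also without KO1 replicate 1, 2 or 3 (-0.18, -0.19 and -0.16) or KO2 replicate 2 (-0.18), and in KO2 without KO2 replicate 1 (-0.15) or 2 (-0.19).

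Spermidine is also the donor for hypusine, a modified lysine that the translation factor eIF5A needs. Of the 4 genes of this step, 3 fell and 1 rose in each clone, and 2 fell and 1 rose in KO2 with the GC trend removed. The gene lost there, named after its values were seen, was DOHH, which completes hypusine: it stood at -0.71 in KO1 (adjusted p = 0.0127) and at -0.57 in KO2 (adjusted p = 0.0269; -0.05 and 0.748 with the GC trend removed). In KO1 DOHH stood at -0.31 with the GC trend removed (adjusted p = 0.0211). Its KO2 call was also lost without WT replicate 2 (-0.45), WT replicate 3 (-0.59) or KO2 replicate 3 (-0.40). With replicate number added to the fit as a block the KO2 value was -0.58 (adjusted p = 0.0553). DHPS, which transfers the spermidine part, averaged 1.89 ± 0.295 CPM in KO1, 1.27 ± 0.330 CPM in KO2 and 3.21 ± 0.608 CPM in WT. It fell by 0.77 in KO1 (adjusted p = 0.00498) and by 1.35 in KO2 (adjusted p = 5.09e-05). The 20 neighbours of DHPS, between positions 11767000 and 12953642 of chromosome 19, had medians of -0.19 in KO1 and -0.63 in KO2. EIF5A averaged 712 ± 59.1 CPM in KO1, 635.6 ± 31.8 CPM in KO2 and 850.4 ± 45.8 CPM in WT. It fell by 0.26 in KO1 (adjusted p = 0.00495) and by 0.42 in KO2 (adjusted p = 6.19e-05), and by 0.11 and 0.27 with the GC trend removed. EIF5A2, its paralog, averaged 41.7 ± 2.18 CPM in KO1, 43.0 ± 1.24 CPM in KO2 and 35.6 ± 1.52 CPM in WT. It rose by 0.23 in KO1 (adjusted p = 0.00465) and by 0.27 in KO2 (adjusted p = 0.000782). With the GC trend removed the KO1 value of EIF5A2 was 0.12. The 20 neighbours of EIF5A2 had medians of 0.15 in KO1, with 17 of 20 above 0, and of 0.03 in KO2.

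Of 7 tested genes of the methionine cycle, which supplies S-adenosylmethionine, and of the salvage of its by-product, 2 fell in KO1, and 2 rose and 5 fell in KO2. AHCY, which clears S-adenosylhomocysteine, averaged 357.6 ± 15.7 CPM in KO1, 341.1 ± 15.1 CPM in KO2 and 483.7 ± 34.1 CPM in WT. It fell by 0.44 in KO1 (adjusted p = 1.58e-05) and by 0.50 in KO2 (adjusted p = 1.35e-06), while its neighbours had medians of -0.10 and 0.01. With the GC trend removed AHCY stood at -0.31 in KO1 and -0.39 in KO2. MAT2A, which makes S-adenosylmethionine, averaged 380 ± 10.8 CPM in KO1, 312.8 ± 5.05 CPM in KO2 and 379.7 ± 19.6 CPM in WT, and fell by 0.28 in KO2 (adjusted p = 5.83e-05). MRI1, a methionine salvage enzyme, averaged 8.67 ± 1.54 CPM in KO1, 5.60 ± 0.542 CPM in KO2 and 12.4 ± 1.74 CPM in WT. It fell by 0.51 in KO1 (adjusted p = 0.00836) and by 1.14 in KO2 (adjusted p = 1.24e-05). The neighbours of MRI1 on chromosome 19 had medians of -0.45 in KO1 and -0.81 in KO2, with 20 of 20 below 0 in KO2. With the GC trend removed these medians were -0.21 and -0.50, and MRI1 stood at -0.46 in KO1 and -1.10 in KO2. The part of the neighbours in the MRI1 values was not tested.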

How the data were processed

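RNA of 9 MDA-MB-231 libraries was compared, 3 each of KO1, KO2 and WT. The authors deposited raw counts per gene symbol, one table per library. Trim Galore and HISAT2 were used, per the submitters' processing notes, which name hg38, GRCm38 and mm10 without a role; no source used here gives tool versions, the counter or the strand setting. RNA had a RIN of 10 in each sample, per the labels' protocols.

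Counts were tested in R 4.3.3 with edgeR 4.0.16 (filterByExpr, TMM, robust quasi-likelihood fit over all 9 libraries); limma 3.58.1 and DESeq2 1.42.0 served as alternatives. An SE is the log2 fold change divided by the square root of F. Tested on simulated data for KO1 against WT over 17441 genes, the procedure found 148 of 200 genes changed 2-fold and called 15 unchanged genes. The biological coefficient of variation was 7.46%, and same-group libraries differed by a chi-square of 5.85 to 28.7 per degree of freedom, so no library repeats another. A count of 0 allows up to 3 counts, for counting error only.

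Positions, exon lengths and GC content came from GENCODE release 29 (GRCh38), which held 55842 symbols and gave GC content for 17289 tested genes; the GC trend was a lowess curve (span 0.3) removed through offsets. Members and gene lists were chosen with earlier results of these data known. Named besides the members and FBXL12 were up to 3 genes a list with the smallest p among those called against WT, and the 5 genes most like ARG2, of which 1 is not reported here. Medians of chromosome neighbours were added after values were seen. Replicate numbers were not used as a block.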

Additional observations from a re-analysis of the deposited data

Results flagged for a closer look

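For 5 of the 10 genes the change from WT differed between the clones, by the test of KO1 minus KO2 itself in edgeR. ASS1 differed by -0.52 (adjusted p = 0.000156), with 3 of 3 KO1 libraries below every KO2 library. OAT differed by -0.36 (adjusted p = 4.59e-06), again with every KO1 library below every KO2 library. SMS differed by -0.12 (adjusted p = 0.0171) in the same direction. AZIN1 differed by 0.21 (adjusted p = 0.00275) and AMD1 by 0.23 (adjusted p = 0.000417), both with 3 of 3 KO1 libraries above every KO2 library. Of all genes tested, 48.9% were called in this comparison. Groups of 3 libraries are too small for a check of single outlying libraries.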

How the results depend on the processing

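Each log2 fold change was recomputed under 19 alternatives: 10 other settings and the 9 libraries left out in turn. Of 570 such values for the 10 genes, 506 kept sign and side of the threshold, 12 changed sign without being called under either setting, 37 lost the call, 13 gained one and 2 changed sign with a call under one setting. For the named pathway genes these numbers were 1263, 44, 93, 23 and 2 of 1425. The 570 include ARG2 against WT, which was not held against the threshold. There a value counted as kept if its sign held and it moved by less than the SD of log2 CPM within groups. SRM in KO1 minus KO2 turned to -0.083 with the GC trend removed, with or without the replicate block, from a value near 0, and NAGS in KO2 turned to 0.10 under the same settings. Genes higher in KO1 than in WT, 2 of the 9, numbered 1 with no filter on low counts, 1 with the DESeq2 Wald test, 1 with the GC trend removed together with the replicate block, 0 with the replicate block alone, 0 with only the 2 groups compared, and 0 to 2 with a library left out. Genes lower in KO1 than in KO2, 3 of 10, numbered 5 with the GC trend removed, also with the replicate block. Over all genes these settings called 5306 and 5244 lower in KO1 than in KO2, in place of 4426. In the wider pathway the lower genes in KO1 ranged from 9 to 15 and the higher genes in KO2 from 4 to 8 on leaving out a library. The other settings were DESeq2 size factors, upper quartile scaling, a minimum of 1 CPM in 3 libraries and limma-voom. Except where a value above shows it by construction, the cause was not tested.

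Deviations of same-numbered libraries from their group means had correlations from -0.53 to 0.48. Between groups, those of differently numbered libraries ran from -0.49 to 0.54. The deviations still held the GC trend of each library, so whether the numbers pair libraries cannot be read from these correlations. With the replicate block, 5544 genes were called in KO1 against WT in place of 6178, 8302 in KO2 against WT in place of 8776, and 8240 between the clones in place of 8679. The block also took AZIN1 in KO1 to an adjusted p of 0.0718 and SMS in KO1 to 0.0534. Removing the GC trend called 6941, 9710 and 9982 genes. Depth limits the lowest genes most. ASS1 rests on at least 277 reads in a library and ARG2 on at least 363, whereas DHPS lies near 1 CPM in KO2.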
